A study of Mus musculus with 8 samples.

Results

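The 10 genes described here encode secreted ligands that act on blood and lymphatic vessels and receptors that bind some of them: the vascular endothelial growth factors Vegfa, Vegfb and Vegfc, placental growth factor (Pgf), the angiopoietins Angpt1 and Angpt2, apelin (Apln) with its receptor Aplnr, and the neuropilins Nrp1 and Nrp2. They were taken by gene name from the deposited tables, which hold 52636 genes, and 9 of the 10 passed the filter of more than 0.5 CPM (the library's counts rescaled to a common total) in at least 2 libraries, which 17529 genes passed in all. RNA was sequenced from cADSC, the plastic-adherent stromal cells grown from the stromal vascular fraction of mouse cardiac fat. The 4 groups were P2Y2 KO cADSC with UTP, P2Y2 KO cADSC untreated, WT cADSC with UTP and WT cADSC untreated. P2Y2 is a receptor for the nucleotides UTP and ATP, and the P2Y2 KO animals carry a targeted loss of its gene, P2ry2. UTP was given daily at 100 µM over 7 days of culture in DMEM with fetal bovine serum, which every group received. Mice were 12 to 16 weeks old, of both sexes, used at random. The labels give the strain as C57BL/6J for the samples, while the methods describe the P2Y2 KO mice as CD1/C57BL/6J, so that genotype and strain background cannot be told apart in a comparison of P2Y2 KO with WT. Each group had 2 libraries, called pool 1 and pool 2, and each pool combined RNA of 2 cultures. P-values therefore measure the spread between pools.

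The VEGF ligands signal through the tyrosine kinase receptors Flt1, Kdr and Flt4 on endothelial cells: VEGF-A is the main driver of vessel sprouting, VEGF-B and placental growth factor bind Flt1, and VEGF-C is best known for the growth of lymphatic vessels through Flt4. Angiopoietin-1 activates the receptor Tek and stabilises vessels, whereas angiopoietin-2 often opposes it. Apelin is a short peptide that acts on the G protein-coupled receptor Aplnr, and neuropilins are co-receptors that bind VEGFs and class 3 semaphorins. Stromal cells of fat are known as a source of several of these ligands, and the question put to the libraries was how 7 days of UTP and the absence of P2Y2 moved them.

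Promoter sequences of RefSeq (GRCm38.p6), 250 bases before to 50 bases after a transcription start, were found for 7 of the 10 genes, 9 sequences in all. Those of Apln, Vegfc and Nrp2 are shown because these genes had the highest fold changes among the calls reported here. One of the 2 Vegfa promoters is added because it alone held a searched motif. Its window lies inside the gene, at an internal transcription start. The other Vegfa window, chr17:46032328-46032627, covers the annotated start of the gene and held neither motif. Capitals mark ACGTG on either strand, the core of a hypoxia response element.
Apln promoter, chrX:48034804-48035103, minus strand: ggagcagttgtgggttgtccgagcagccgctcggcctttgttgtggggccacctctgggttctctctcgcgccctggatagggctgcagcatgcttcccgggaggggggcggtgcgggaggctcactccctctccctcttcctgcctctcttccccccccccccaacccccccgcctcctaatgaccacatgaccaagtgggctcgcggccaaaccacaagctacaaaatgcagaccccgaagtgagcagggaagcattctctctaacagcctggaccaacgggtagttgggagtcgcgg
Vegfc promoter, chr8:54077282-54077581, plus strand: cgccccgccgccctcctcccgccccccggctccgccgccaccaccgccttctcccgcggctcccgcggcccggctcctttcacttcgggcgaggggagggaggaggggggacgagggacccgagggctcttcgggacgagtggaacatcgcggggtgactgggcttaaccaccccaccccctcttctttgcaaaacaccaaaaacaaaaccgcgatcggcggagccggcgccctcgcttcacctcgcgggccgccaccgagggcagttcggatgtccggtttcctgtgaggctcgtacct
Nrp2 promoter, chr1:62703067-62703366, plus strand: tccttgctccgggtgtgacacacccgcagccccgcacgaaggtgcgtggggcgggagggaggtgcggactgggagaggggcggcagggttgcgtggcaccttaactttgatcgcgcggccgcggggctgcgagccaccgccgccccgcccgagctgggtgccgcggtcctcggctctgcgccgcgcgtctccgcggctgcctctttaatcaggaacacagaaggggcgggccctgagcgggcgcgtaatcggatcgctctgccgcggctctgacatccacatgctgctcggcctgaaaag
Vegfa promoter, chr17:46025114-46025413, minus strand: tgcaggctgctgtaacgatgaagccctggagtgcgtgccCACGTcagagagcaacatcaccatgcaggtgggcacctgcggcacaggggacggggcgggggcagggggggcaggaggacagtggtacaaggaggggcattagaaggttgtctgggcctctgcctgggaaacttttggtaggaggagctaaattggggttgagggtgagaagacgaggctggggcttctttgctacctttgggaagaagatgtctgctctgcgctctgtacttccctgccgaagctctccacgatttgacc
ACGTG was found in 1 of the 9 promoters, against 19.6% of the 32851 mouse promoters in the same table, and the AP-1 motif TGANTCA in 0 of 9, against 7.81%. Both motifs were searched on both strands, and a match or its absence describes only the letters of these windows. Angpt1, Angpt2 and Aplnr are named only. In GENCODE M21 (GRCm38) all 10 are protein-coding genes: Nrp2 spans 62703285 to 62818695 on the plus strand of chromosome 1, Vegfc 54077606 to 54187096 and Nrp1 128358604 to 128503363 on the plus strand of chromosome 8, and Vegfa 46016993 to 46032369 on the minus strand of chromosome 17. Counts cover all exons of a gene, UTRs included, so isoforms cannot be told apart.

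Library totals lay between 20008555 and 20015454 scaled counts. Their whole numbers have the pattern of counts multiplied by 1 factor per library, estimated at 0.9084 to 1.0753, and 20 scaled counts equal about 1 CPM. P2ry2, the targeted gene, had 274 and 301 scaled counts in UTP-treated P2Y2 KO, 280 and 311 in untreated P2Y2 KO, 328 and 328 in UTP-treated WT and 362 and 347 in untreated WT. In untreated libraries its log2 fold change, P2Y2 KO against WT, was -0.26 ± 0.10 (SE, edgeR adjusted p = 0.0925). The gene's reads were thus still counted in the libraries labelled P2Y2 KO, and whether they cover the targeted part was not tested. The mesenchymal markers that the study followed by flow cytometry, Thy1 (CD90), Eng (CD105) and Cd44, each had at least 1837 scaled counts in every library. Markers of other cells were present too: 15 macrophage genes summed to 3549 and 3707 CPM in UTP-treated P2Y2 KO, 4938 and 4313 CPM in untreated P2Y2 KO, 1831 and 1746 CPM in UTP-treated WT and 3663 and 2716 CPM in untreated WT. The 13 endothelial markers summed to 120 to 143 CPM in P2Y2 KO and 84.6 to 128 CPM in WT, and none of them was at 0 in all libraries. The 6 epithelial markers summed to 10.7 to 13.8 CPM in P2Y2 KO and, in WT, to 138 and 135 CPM with UTP and 11.2 and 107 CPM without. All 6 were called lower in P2Y2 KO with UTP (median log2 fold change -3.53) and 4 without (-2.84), where 17.4% and 20.7% of all genes passed. That is the direction of Vegfa, although untreated WT pool 1 had an epithelial sum as low as P2Y2 KO. The 6 adipocyte markers summed to 154 and 284 CPM in UTP-treated P2Y2 KO, 178 and 316 CPM in untreated P2Y2 KO and 101 to 133 CPM in WT. Of the 5 tested, 3 were higher in P2Y2 KO with UTP (median log2 fold change 1.69) and 2 without (1.23), where 17.4% and 20.7% of all genes passed. They thus moved with genotype in the direction of Apln, Vegfc and Vegfb, as did macrophage markers, of which 14 of 15 were higher with UTP and 5 without. Within P2Y2 KO the adipocyte sum was higher in pool 2, whereas Vegfc was higher in pool 1 and the Apln pools lay close together. The part of the adipocyte, macrophage and epithelial markers in the values of Apln, Vegfc, Vegfb and Vegfa was not tested. Xist, read from female cells, stood at 0.1 CPM in pool 1 of both P2Y2 KO groups and at 452 CPM in untreated WT pool 1, whose Y-linked genes were at 0, while the other 5 libraries had 215 to 249 CPM of Xist together with Y-linked reads. The mix of sexes therefore differed between pools and between genotypes.

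Apelin was the member with the highest fold change between genotypes without UTP and the one that rose with UTP in WT. Apln had 1055 and 1068 scaled counts in UTP-treated P2Y2 KO, 825 and 811 in untreated P2Y2 KO, 638 and 597 in UTP-treated WT, and 318 and 402 in untreated WT. The 4 groups did not overlap, and every P2Y2 KO library, treated or not, lay above every WT library. The share of all genes whose libraries separate in this way is not given, here or for the members below. With UTP, Apln was 1.72-fold higher in WT (log2 fold change 0.78 ± 0.10, SE, n = 2 pools each, edgeR adjusted p = 0.0267). In P2Y2 KO it was 1.30-fold higher with UTP (log2 fold change 0.38 ± 0.09, unadjusted p = 0.00306 by edgeR), which did not pass over all genes (adjusted p = 0.414). In the difference of both UTP effects, P2Y2 KO minus WT, Apln had a log2 value of -0.40 with a 95% interval of -0.71 to -0.08 and did not pass (edgeR adjusted p = 0.837). Without UTP, Apln was 2.27-fold higher in P2Y2 KO than in WT (log2 fold change 1.18 ± 0.10, edgeR adjusted p = 0.000828), and with UTP 1.72-fold higher (log2 fold change 0.79 ± 0.09, edgeR adjusted p = 0.00251). The call for UTP in WT was lost without UTP-treated WT pool 1 (log2 fold change 0.74) or pool 2 (0.82) and without untreated P2Y2 KO pool 1 (0.78). In those fits far fewer of all genes passed as well. The difference of effects passed without untreated WT pool 2 (log2 value -0.56). The UTP effect in P2Y2 KO passed without untreated WT pool 1 or pool 2 (0.38 in each), which enter it only through the shared spread. In those fits more of all genes passed. Both genotype calls held in all 19 alternatives, with edgeR, DESeq2 or limma adjusted p up to 0.012 without UTP and up to 0.038 with UTP.

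**Figure D1:**
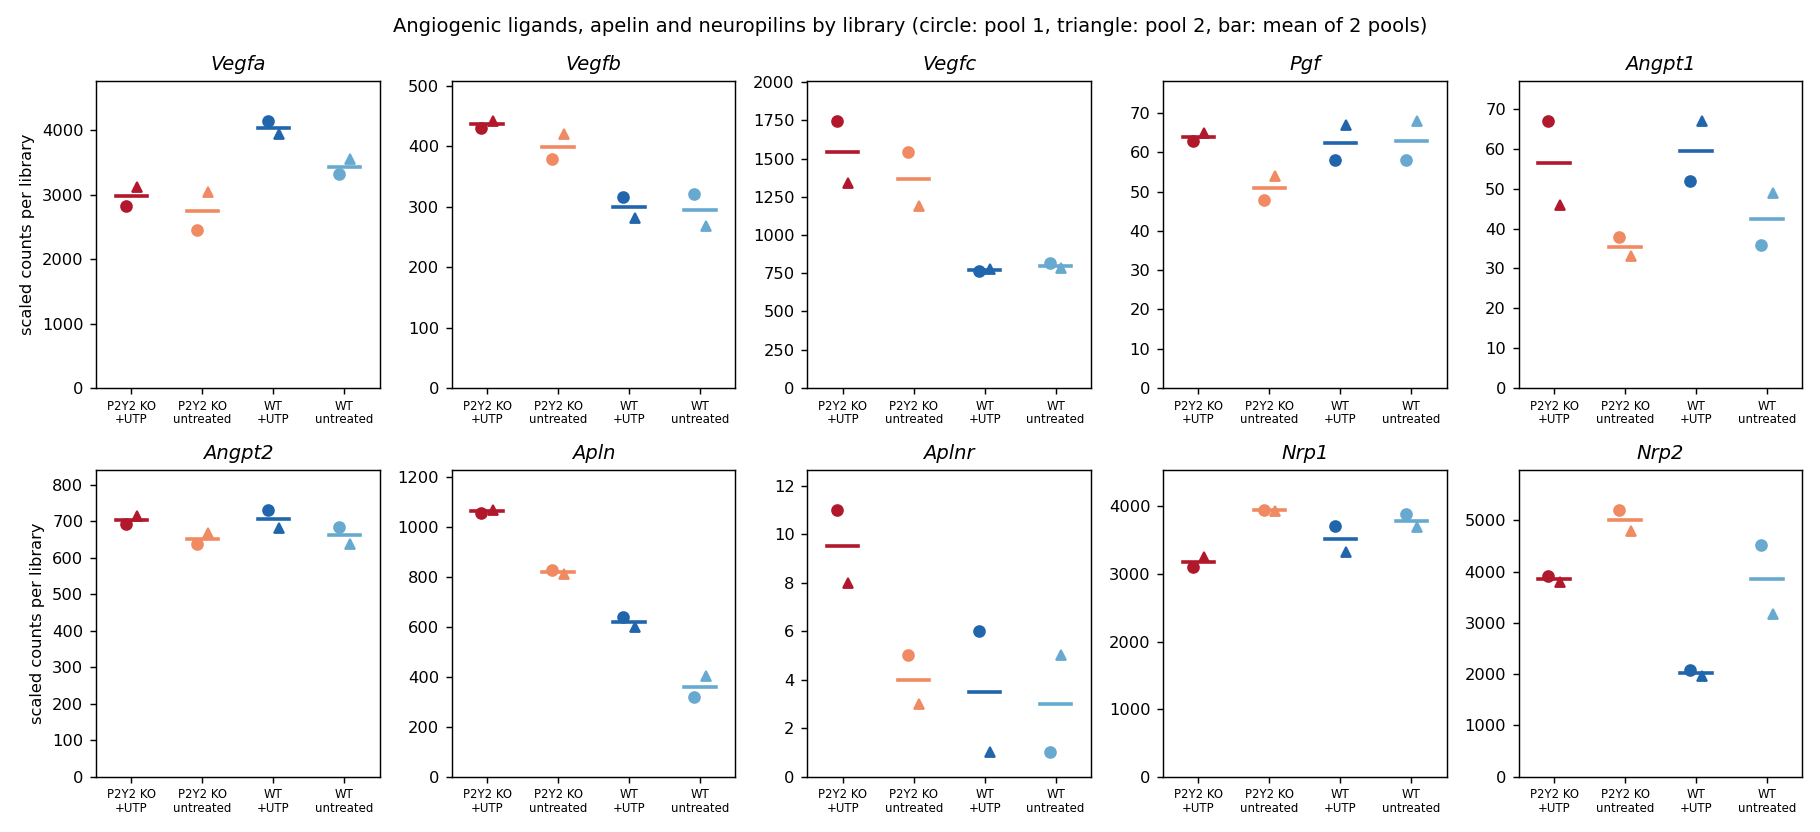
Scaled counts (vertical axis, from 0) of each of the 10 genes in the 8 libraries, by group along the horizontal axis. Circles are pool 1, triangles pool 2 and bars the mean of the 2 pools. Apln stands at 811 to 1068 in P2Y2 KO and 318 to 638 in WT, and Nrp2 is lowest in UTP-treated WT, at 1965 and 2088.

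Apln lies on chromosome X (GRCm38, 48025146 to 48034853, minus strand), and the libraries differ in their share of male cells. That share was not measured but estimated from 1 gene, as 1 minus the Xist level over the highest Xist level of any library. Y-linked reads did not follow it closely: untreated WT pool 2 and UTP-treated WT pool 1 had 249 and 241 CPM of Xist but 61.3 and 85.0 CPM of Y-linked genes. With that estimate as a covariate, an alternative chosen after seeing the data, Apln stayed higher in P2Y2 KO without UTP (log2 fold change 1.11, edgeR adjusted p = 0.00373) and higher with UTP in WT (0.75, edgeR adjusted p = 0.0331). The apelin receptor was near the limit of detection. Aplnr had 11 and 8 scaled counts in UTP-treated P2Y2 KO, 5 and 3 in untreated P2Y2 KO, 6 and 1 in UTP-treated WT, and 1 and 5 in untreated WT. Only UTP-treated P2Y2 KO pool 1 was above 0.5 CPM (10 scaled counts), so Aplnr was not tested and its counts are too few for a comparison. Apela, the other known ligand of Aplnr, was at 0 in every library, a count that allows up to 0.15 CPM for counting error alone. Among proteases known to cut apelin, Mme (neprilysin) was higher in P2Y2 KO. It had 336 and 315 scaled counts in UTP-treated P2Y2 KO, 290 and 298 in untreated P2Y2 KO, 206 and 212 in UTP-treated WT and 153 and 168 in untreated WT. Its log2 fold change, P2Y2 KO against WT, was 0.87 ± 0.10 without UTP (edgeR adjusted p = 0.00212) and 0.64 ± 0.09 with UTP (edgeR adjusted p = 0.00419). Furin, which processes proapelin, did not pass in either genotype comparison.

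Nrp2 was the member that fell with UTP in WT. It had 3911 and 3792 scaled counts in UTP-treated P2Y2 KO, 5207 and 4800 in untreated P2Y2 KO, 2088 and 1965 in UTP-treated WT, and 4524 and 3175 in untreated WT. The treated and untreated pools did not overlap in either genotype, but the 2 untreated WT pools lay far apart. With UTP, Nrp2 fell by 0.93 ± 0.14 on the log2 scale in WT (edgeR adjusted p = 0.031). In P2Y2 KO the log2 fold change was -0.37 ± 0.14 (edgeR adjusted p = 0.579), and the difference of both effects was 0.56 with a 95% interval of 0.10 to 1.02 (edgeR adjusted p = 0.837). Between genotypes Nrp2 was 1.91-fold higher in P2Y2 KO with UTP (log2 fold change 0.93 ± 0.14, edgeR adjusted p = 0.00507), and without UTP the log2 fold change was 0.37 ± 0.14 (edgeR adjusted p = 0.0943). Leaving out untreated WT pool 1 gave a log2 fold change of 0.67 for the comparison without UTP (edgeR adjusted p = 0.00218), and leaving out pool 2 gave 0.13 (0.2). The UTP call in WT was lost without UTP-treated WT pool 1 (log2 fold change -0.97) or pool 2 (-0.89) and without any 1 of the 4 P2Y2 KO libraries (-0.93 in each). The genotype call with UTP was lost without UTP-treated WT pool 2 (0.89). In all those fits fewer of all genes passed as well. The difference of effects passed without untreated WT pool 2 (log2 value 0.80). The UTP effect in P2Y2 KO passed without untreated WT pool 1 or pool 2 (-0.37 in each), which enter it only through the shared spread. In those fits more of all genes passed.

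Nrp2 and the macrophage markers ranked the libraries nearly alike. Nrp2 and the summed macrophage CPM were both highest in the untreated P2Y2 KO pools, both lowest in the UTP-treated WT pools, and both higher in untreated WT pool 1 than in pool 2. Over the 8 libraries, the 3 genes with the pattern nearest to Nrp2 were Tyrobp, Ncf1 and Fcer1g, with Pearson's r of 0.998, 0.998 and 0.997 on log2(CPM + 1), among 682 of 17528 genes above 0.9. All 3 are known from myeloid cells, and Tyrobp is on the macrophage list. The libraries share their depth scaling and the 4 conditions, so r describes these samples only. Of the 15 macrophage markers, 10 fell with UTP in WT, where 1.22% of all genes passed (median log2 fold change -1.03 over the 15, against 0.01 over all genes tested). With UTP, 14 were higher in P2Y2 KO than in WT, where 17.4% of all genes passed (median 1.12, against 0.00). None of the 15 was at 0 in all libraries. In RNA of a whole culture, fewer macrophages and less Nrp2 RNA per cell cannot be told apart, and the part of the macrophage content in the Nrp2 values was not tested.

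**Figure D2:**
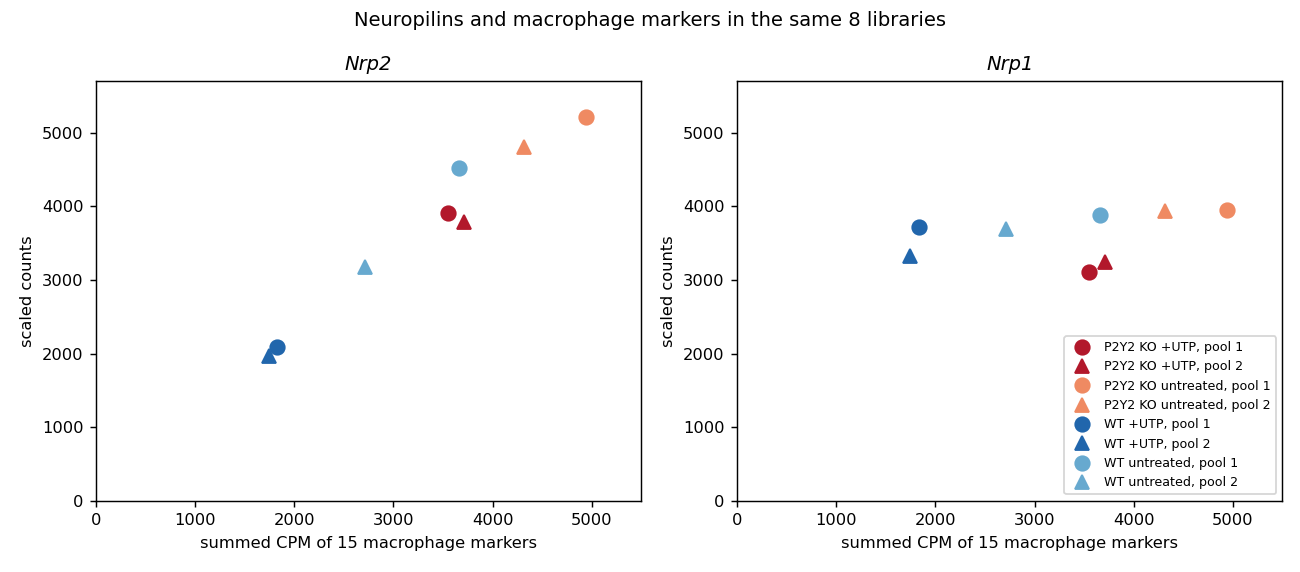
Scaled counts of Nrp2 (left) and Nrp1 (right) on the vertical axes against the summed CPM of 15 macrophage markers on the horizontal axes, 1 point for each of the 8 libraries. Nrp2 spans 1965 to 5207 and is higher where the macrophage sum is higher, except among the 3 libraries at 3549 to 3707 CPM, from UTP-treated WT at 1746 and 1831 CPM to untreated P2Y2 KO at 4313 and 4938 CPM, while Nrp1 stays between 3103 and 3951.

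Nrp1 varied less. It had 3103 and 3249 scaled counts in UTP-treated P2Y2 KO, 3951 and 3933 in untreated P2Y2 KO, 3714 and 3329 in UTP-treated WT, and 3882 and 3697 in untreated WT. The treated and untreated pools were apart in P2Y2 KO and overlapped in WT. The log2 fold change with UTP was -0.30 ± 0.07 in P2Y2 KO (unadjusted p = 0.00186, adjusted p = 0.375 by edgeR) and -0.11 ± 0.07 in WT (edgeR adjusted p = 0.451), and the difference of both effects was -0.20 with a 95% interval of -0.42 to 0.02. Without the filter on low counts the effect in P2Y2 KO passed (edgeR adjusted p = 0.0358). The ratio of Nrp2 to Nrp1 counts was 1.26 and 1.17 in UTP-treated P2Y2 KO, 1.32 and 1.22 in untreated P2Y2 KO, 0.562 and 0.59 in UTP-treated WT, and 1.17 and 0.859 in untreated WT. Nrp1 thus had more counts than Nrp2 in both UTP-treated WT pools and in 1 untreated WT pool, and fewer in the other 5 libraries. Nrp2 has the longer exons, and per kb of exon the ratio was 1.04 and 0.964 in UTP-treated P2Y2 KO and 1.09 and 1.01 in untreated P2Y2 KO. In WT it was 0.465 and 0.488 with UTP and 0.963 and 0.71 without. By that measure Nrp1 was above Nrp2 in every WT library and in UTP-treated P2Y2 KO pool 2.

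Among the VEGF ligands, Vegfc and Vegfb were higher and Vegfa lower in P2Y2 KO. Vegfc had 1746 and 1338 scaled counts in UTP-treated P2Y2 KO, 1541 and 1192 in untreated P2Y2 KO, 764 and 775 in UTP-treated WT, and 817 and 783 in untreated WT. All 4 P2Y2 KO libraries lay above all 4 WT libraries, and pool 1 was above pool 2 in both P2Y2 KO groups. Vegfc was 1.70-fold higher in P2Y2 KO without UTP (log2 fold change 0.77 ± 0.14, edgeR adjusted p = 0.00927) and 2.01-fold higher with UTP (log2 fold change 1.01 ± 0.14, edgeR adjusted p = 0.00366). The call without UTP was lost without untreated P2Y2 KO pool 1 (log2 fold change 0.59), one of the 2 libraries with Xist at 0.1 CPM. It was also lost with the share of male cells as a covariate (0.50, edgeR adjusted p = 0.0647). In both fits fewer of all genes passed as well. With UTP, Vegfc had a log2 fold change of 0.86 with that covariate (edgeR adjusted p = 0.00247). The value was at least 0.81 and the call held in all 19 alternatives. These include leaving out UTP-treated P2Y2 KO pool 1, the other library with Xist at 0.1 CPM.

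Vegfa, with the most counts of the ligands among the 10 genes, had 2824 and 3123 scaled counts in UTP-treated P2Y2 KO, 2454 and 3042 in untreated P2Y2 KO, 4144 and 3937 in UTP-treated WT, and 3323 and 3549 in untreated WT. Every P2Y2 KO library lay below every WT library. With UTP, Vegfa was lower in P2Y2 KO than in WT (log2 fold change -0.44 ± 0.11, edgeR adjusted p = 0.0247), and without UTP the log2 fold change was -0.32 ± 0.11 (edgeR adjusted p = 0.0615, DESeq2 adjusted p = 0.0406). The call with UTP was lost without any 1 of the 4 UTP-treated libraries (log2 fold changes -0.51 to -0.36), where fewer of all genes passed as well. The comparison without UTP passed without untreated P2Y2 KO pool 2 (log2 fold change -0.50) but moved to -0.16 without pool 1. With the share of male cells as covariate it was -0.17 (edgeR adjusted p = 0.379). With UTP against untreated, Vegfa had a log2 fold change of 0.24 ± 0.10 in WT (edgeR adjusted p = 0.288), where the pools did not overlap, and 0.12 ± 0.11 in P2Y2 KO (edgeR adjusted p = 0.901), where they did.

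Vegfb had 431 and 442 scaled counts in UTP-treated P2Y2 KO, 379 and 420 in untreated P2Y2 KO, 317 and 282 in UTP-treated WT, and 321 and 268 in untreated WT. Again the genotypes did not overlap. Vegfb was 1.35-fold higher in P2Y2 KO without UTP (log2 fold change 0.44 ± 0.12, edgeR adjusted p = 0.0346) and 1.46-fold higher with UTP (0.55 ± 0.12, edgeR adjusted p = 0.0165). The call without UTP was lost in DESeq2 (adjusted p = 0.0823) and in 7 of 8 fits that left out 1 library, all but untreated WT pool 1 (log2 fold changes 0.30 to 0.52). The call with UTP was lost without any 1 of the 4 UTP-treated libraries (0.47 to 0.63), where fewer of all genes passed as well. Over the 8 libraries, the 3 genes with the pattern nearest to Vegfb were Bnip3, Cacna1g and Adhfe1. Their Pearson's r was 0.994, 0.99 and 0.986, among 362 of 17528 genes above 0.9. Bnip3, a mitophagy gene, is on the list of 21 hypoxia targets, whereas Cacna1g and Adhfe1 are not. The ratio of Vegfa to Vegfc levels per length was 0.92 and 1.33 in UTP-treated P2Y2 KO, 0.91 and 1.46 in untreated P2Y2 KO, 3.1 and 2.9 in UTP-treated WT and 2.32 and 2.59 in untreated WT. In pool 1 of both P2Y2 KO groups the level of Vegfc per length was above that of Vegfa, and in the other 6 libraries below it. Vegfd, the remaining VEGF ligand of the mouse and not among the 10 genes, had more counts than any of them, with 10601 and 11176 scaled counts in UTP-treated P2Y2 KO, 11408 and 10752 in untreated P2Y2 KO, 9110 and 8778 in UTP-treated WT and 10864 and 7738 in untreated WT. It passed in none of the 6 comparisons, with log2 fold changes, P2Y2 KO against WT, of 0.29 ± 0.14 with UTP (edgeR adjusted p = 0.189) and 0.25 ± 0.14 without (0.227).

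Pgf and both angiopoietins passed in no comparison. Pgf had 63 and 65 scaled counts in UTP-treated P2Y2 KO, 48 and 54 in untreated P2Y2 KO, 58 and 67 in UTP-treated WT, and 58 and 68 in untreated WT. Angpt2 had 693 and 714 in UTP-treated P2Y2 KO, 637 and 668 in untreated P2Y2 KO, 732 and 683 in UTP-treated WT, and 686 and 639 in untreated WT. For Angpt2 the 95% interval of the log2 fold change between genotypes was -0.20 to 0.15 without UTP and -0.18 to 0.17 with UTP, the narrowest of the ligands among the 10 genes. Angpt1 had 67 and 46 scaled counts in UTP-treated P2Y2 KO, 38 and 33 in untreated P2Y2 KO, 52 and 67 in UTP-treated WT, and 36 and 49 in untreated WT. The UTP-treated pools of Angpt1 lay above the untreated ones within each genotype, with log2 fold changes of 0.67 ± 0.26 in P2Y2 KO (edgeR adjusted p = 0.594) and 0.49 ± 0.26 in WT (edgeR adjusted p = 0.361) at fewer than 70 counts. Angpt1 shares exon bases with the antisense gene Gm17473, and the strand setting of the counting is not given in the sources used here, so its counts are uncertain in that respect. Angpt2 lies within Mcph1 on the other strand without shared exon bases.

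Counted over the 9 genes tested, UTP changed 2 in WT, Apln upward and Nrp2 downward, where 1.22% of all genes tested passed. In P2Y2 KO edgeR called 0 of 9 (0.0342% of all genes), with 4 below 0.05 before adjustment, and DESeq2 and limma each called 0. The difference of both UTP effects had 0 of 9 calls (0% of all genes by edgeR, 2 of the 9 below 0.05 before adjustment, and 0 in DESeq2 and in limma), so a UTP effect that differs between genotypes was not shown for any member over all 8 libraries. Averaged over both genotypes, UTP changed 2 of 9 (2.55% of all genes): Apln rose by 0.58 ± 0.07 (edgeR adjusted p = 0.0106) and Nrp2 fell by 0.65 ± 0.10 (edgeR adjusted p = 0.0181) on the log2 scale. Those 2 averaged calls were both lost without UTP-treated WT pool 1, without UTP-treated WT pool 2 and without untreated P2Y2 KO pool 1. That of Nrp2 was also lost without either UTP-treated P2Y2 KO pool. In the fits that lost them, the log2 value was 0.56 to 0.60 for Apln and -0.67 to -0.63 for Nrp2, and fewer of all genes passed as well. Between genotypes, 3 of 9 were called without UTP, all higher in P2Y2 KO, where 20.7% of all genes passed, and 5 of 9 with UTP, 4 higher and 1 lower, where 17.4% of all genes passed. The 2 genotype comparisons use different libraries, and each shares its libraries with the UTP comparisons. Under the fold change rule of the study's methods, which asks for a ratio of mean CPM over 2 or under 0.5 and leaves out genes whose 2 group means are both at or under 0.5 CPM, 0 members passed for UTP in WT (3.08% of 17013 genes) and 0 in P2Y2 KO (1.36% of 17263 genes). The Nrp2 ratio in WT, 0.526, and that of Apln, 1.72, were inside these limits. Aplnr had a ratio of 2.38 in P2Y2 KO but means of 0.475 CPM with UTP and 0.2 CPM without. Without untreated WT pool 2, Nrp2 passed the rule in WT, and without UTP-treated P2Y2 KO pool 2, Aplnr passed it in P2Y2 KO.

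**Figure D3:**
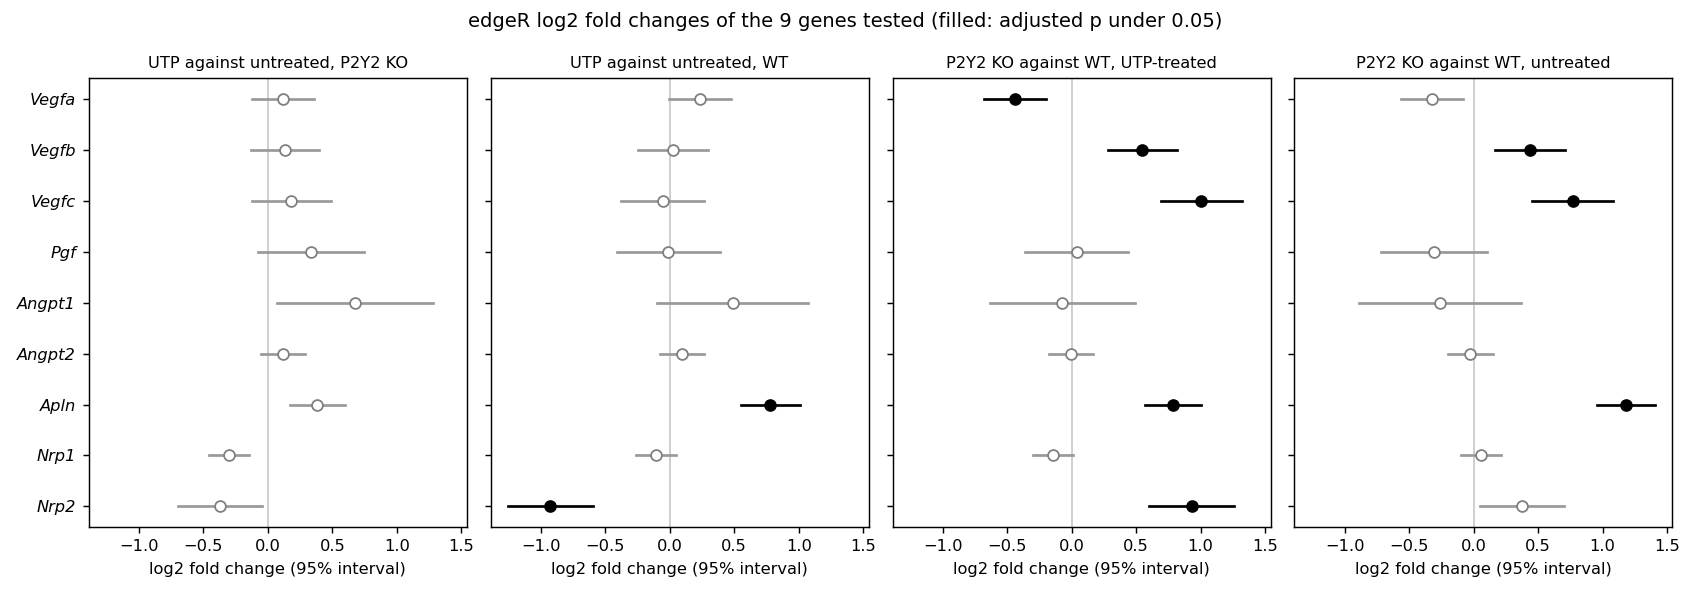
Log2 fold changes (horizontal axes, points) with 95% intervals (lines) of the 9 genes tested, for UTP against untreated in P2Y2 KO and in WT and for P2Y2 KO against WT with and without UTP. Filled points have an edgeR adjusted p under 0.05: 0 in P2Y2 KO, Apln and Nrp2 in WT, 5 genes between genotypes with UTP and 3 without.

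Per kb of exon, which allows levels to be compared between genes, Vegfa had the highest level of the 10 genes in each group, with means of 694 scaled counts per kb in UTP-treated P2Y2 KO, 641 in untreated P2Y2 KO, 943 in UTP-treated WT and 802 in untreated WT. In untreated P2Y2 KO the order of mean levels per kb was Vegfa at 641, Vegfc at 558, Nrp2 at 423, Nrp1 at 403, Apln at 260, Vegfb at 249, Angpt2 at 177, Pgf at 17.6, Angpt1 at 6.82 and Aplnr at 1.08. The pools of Vegfa and Vegfc overlapped there, as did those of Apln and Vegfb. In untreated WT the order was Vegfa at 802, Nrp1 at 387, Vegfc at 327, Nrp2 at 325, Vegfb at 183, Angpt2 at 180, Apln at 114, Pgf at 21.7, Angpt1 at 8.17 and Aplnr at 0.81. There the pools of Nrp1 and Nrp2, of Vegfc and Nrp2, and of Vegfb and Angpt2 overlapped. Apln thus ranked below Vegfb and Angpt2 in untreated WT and above Angpt2 in untreated P2Y2 KO. Angpt2 exceeded Angpt1 per kb by 14.4 to 28.6 times over all 8 libraries.

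**Figure D4:**
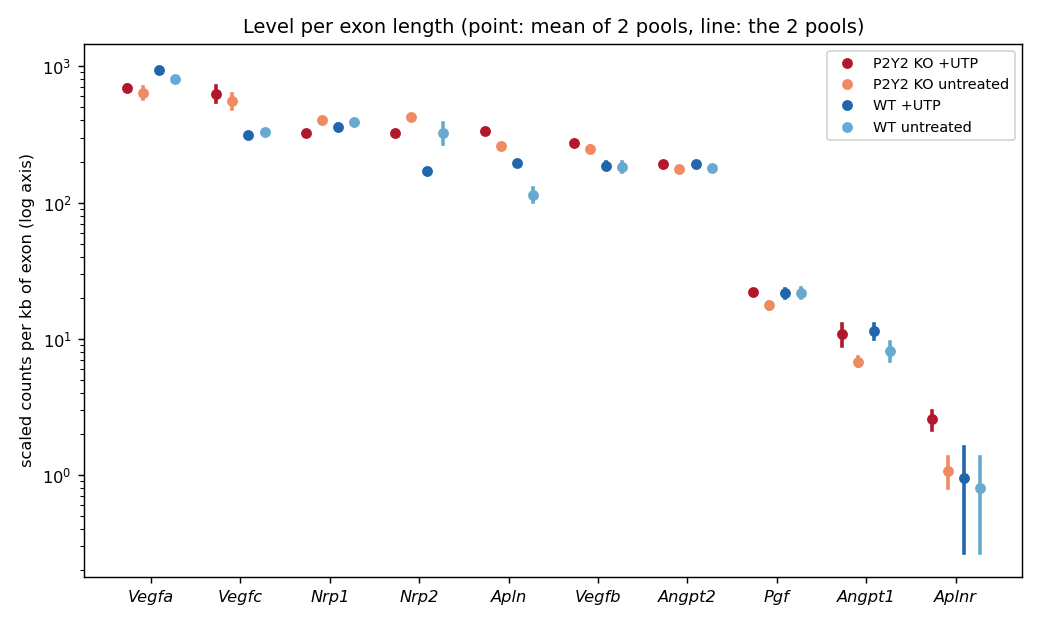
Scaled counts per kb of exon (vertical log axis) of the 10 genes, ordered along the horizontal axis by their mean over the groups. Points are group means and lines join the 2 pools. Vegfa is highest at 641 to 943 per kb, and Aplnr lowest at 0.81 to 2.57 per kb.

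Of the 5 receptors of the VEGFs and angiopoietins, Kdr, Tie1 and Tek passed in a comparison between genotypes and none passed with UTP against untreated. Between genotypes, 17.4% of all genes passed with UTP and 20.7% without. Kdr, the main signalling receptor of VEGF-A, had 379 and 305 scaled counts in UTP-treated P2Y2 KO, 373 and 413 in untreated P2Y2 KO, 570 and 597 in UTP-treated WT, and 406 and 655 in untreated WT. It was lower in P2Y2 KO with UTP (log2 fold change -0.77 ± 0.20, edgeR adjusted p = 0.0325), and without UTP the value was -0.43 ± 0.20 (edgeR adjusted p = 0.15). Tie1, an endothelial receptor related to Tek, was higher in P2Y2 KO both with UTP (0.77 ± 0.18, edgeR adjusted p = 0.0248) and without (0.73 ± 0.19, edgeR adjusted p = 0.034), at 40 to 103 scaled counts over the 8 libraries. Tek, the angiopoietin receptor, was lower in P2Y2 KO without UTP (log2 fold change -0.57 ± 0.14, edgeR adjusted p = 0.0284). Kdr, Tie1 and Tek are also on the list of 13 endothelial markers, of which 11 had a value above 0 in each genotype comparison. Without UTP, 4 of the 13 were called higher and 1 lower in P2Y2 KO (median log2 fold change 0.61), and with UTP 3 higher and 1 lower (0.35). Kdr and Tek thus went against most of that list. Flt1, which also binds placental growth factor, had 578 to 879 scaled counts in P2Y2 KO and 745 to 987 in WT, and Flt4, the receptor of VEGF-C, had 166 to 214 in P2Y2 KO and 100 to 184 in WT. Flt1 and Flt4 passed in none of the 6 comparisons.

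The other genes around these pathways came from 7 lists with 70 genes tested: VEGF and Tie receptors, related ligands, neuropilin partners, apelin proteases, other angiogenic growth factors, angiogenesis inhibitors and hypoxia targets. For UTP in WT edgeR called 0 of the 70, although 13 lay below 0.05 before adjustment. DESeq2 called 3 and limma 0. For UTP in P2Y2 KO edgeR, DESeq2 and limma each called 0, with 4 at an unadjusted p under 0.05. For the difference of effects edgeR, DESeq2 and limma each called 0, with 3 at an unadjusted p under 0.05. Averaged over both genotypes 1 passed, Angptl2, a secreted angiopoietin-like protein, which rose by 0.23 ± 0.04 on the log2 scale (edgeR adjusted p = 0.032). Between genotypes 20 of the 70 passed without UTP and 18 with UTP, shares to be read against 20.7% and 17.4% of all genes.

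Without UTP, the semaphorin Sema3f, a known ligand of Nrp2, was higher in P2Y2 KO, with 2477 and 2132 scaled counts against 1184 and 1502 in WT (log2 fold change 0.78 ± 0.11, edgeR adjusted p = 0.00519). Among the 13 neuropilin partners, 3 were higher and 2 lower in P2Y2 KO without UTP, and 1 was higher and 3 lower with UTP. List counts in this paragraph are to be read against the 20.7% of all genes that passed without UTP and the 17.4% with UTP. Thbs2, an inhibitor of angiogenesis, was lower in P2Y2 KO in both comparisons, with 7675 and 7805 scaled counts in UTP-treated P2Y2 KO against 16496 and 15118 in UTP-treated WT (log2 fold change -1.03 ± 0.11, edgeR adjusted p = 0.00166), and 6387 and 7398 in untreated P2Y2 KO against 10777 and 13136 in untreated WT (-0.80 ± 0.11, edgeR adjusted p = 0.0037). Thbs2 was the only lower one of the 7 inhibitors tested, and 1 other was higher with UTP. Among the 10 other angiogenic growth factors, 3 were higher and 2 lower in P2Y2 KO without UTP, and 2 were higher and 1 lower with UTP. Fgf1 was among those higher without UTP (0.73 ± 0.11, edgeR adjusted p = 0.00536). Fgf7, a growth factor for epithelial cells, was lower in P2Y2 KO with UTP, with 1717 and 1835 scaled counts against 2467 and 2338 in WT (-0.43 ± 0.08, edgeR adjusted p = 0.00764). Of the 21 hypoxia targets, 4 were higher and 1 lower in P2Y2 KO without UTP, where 20.7% of all genes passed (median log2 fold change 0.09 against 0.02 over all genes tested). With UTP, 5 were higher and 0 lower, where 17.4% passed (0.10 against 0.00). For UTP in WT, 9 of the 21 had a value above 0 and the median was -0.02, against 0.01 over all genes tested.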

How the data were processed

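Paired-end reads of 100 bases from stranded mRNA libraries were, per the labels and the methods, trimmed with Trimmomatic, mapped by STAR on mm10 (GRCm38.p4), then counted for each gene with HTSeq on Ensembl 87 annotation. Tool versions and the strand setting are not given in the sources used here. The authors deposited 1 table per genotype, whose library values are treated as estimated counts per gene. These are whole numbers whose totals and gaps are those of counts multiplied by 1 factor per library (estimated at 0.9084 to 1.0753) and rounded, which leaves relative levels within a library as counted but makes counting error slightly too small or too large. The deposited group averages and the ratio of UTP-treated to untreated cells were not used. Gene names that had become dates in 1 table (15) were taken from the other by gene identifier, and no member was affected. Columns of no sample numbered 0. Because each library was scaled to about the same total, the tables were joined.

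Genes above 0.5 CPM in at least 2 of 8 libraries were tested with edgeR 4.0.16 (R 4.3.3), TMM normalization and the quasi-likelihood F test, in 1 model with the 4 groups, which share 1 estimate of the spread. The Benjamini-Hochberg adjustment covered all 17529 genes (threshold 0.05). Errors are SE of the log2 fold change and intervals cover 95%. The code was tested on simulated counts. Alternatives were DESeq2 1.42.0, limma 3.58.1 on log2(CPM + pseudocount), other size factors, other minimums, the replicate number as a block, only the libraries of 1 genotype, and each library left out. The share of male cells as covariate, estimated from Xist alone, the undone scaling and a block within each genotype were added after seeing the data. The 10 members and all gene lists were chosen with earlier results of these data known. All members, 5 VEGF and Tie receptors and P2ry2 are named. Other list genes are named where they passed, at most the 4 with the smallest adjusted p per comparison, and for each member the 3 genes with the nearest pattern may be named. Apela, Vegfd, Furin, Xist and the 3 mesenchymal markers were named outside this rule, after their values were seen. Gene positions and exon lengths are from GENCODE M21 (GRCm38), promoters from RefSeq.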

Additional observations from a re-analysis of the deposited data

How the results depend on the processing

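No member's called value changed sign in any alternative (0 of 230 values), and of the values that were not called 25 of 814 did. Of the 612 single-gene values under settings other than leaving out a library, 580 kept their side of the threshold. Those among the 580 that were not called also moved by no more than their error, a limit that was not set for called values. Another 11 kept their side, uncalled, but moved by more than their error. A call was gained in 14 and lost in 7. The number of members called moved by over 1.5 times as follows. UTP in WT: 1 (Apln) with the share of male cells as covariate and 0 with only the WT libraries, where Apln had an adjusted p of 0.133 and Nrp2 of 0.153. UTP in P2Y2 KO: 2 (Apln and Nrp1) without a minimum. P2Y2 KO against WT without UTP: 5 without a minimum. The fold change rule in P2Y2 KO: 1 (Aplnr) without a minimum. Smaller moves were 2 to 4 members for P2Y2 KO against WT without UTP (2, Vegfb and Apln, with the share of male cells, and 4 in DESeq2, limma and with the replicate block), and 3 for averaged UTP in DESeq2, without a minimum and with the block within each genotype, where Nrp1 was added (adjusted p = 0.0445, 0.0135 and 0.0207).

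With each library left out in turn, log2 fold changes for UTP in WT were 0.63 to 0.94 (Apln) and -1.18 to -0.63 (Nrp2). For P2Y2 KO against WT without UTP they were 1.04 to 1.35 (Apln), 0.59 to 0.93 (Vegfc) and 0.30 to 0.59 (Vegfb). With UTP they were 0.74 to 0.83 (Apln), 0.81 to 1.19 (Vegfc), 0.89 to 0.97 (Nrp2), 0.47 to 0.63 (Vegfb) and -0.51 to -0.36 (Vegfa). The number of members called changed in every comparison, and so did the number called over all genes. A lost or gained call in these fits thus does not describe the member alone. Under the fold change rule, Nrp2 in WT and Aplnr in P2Y2 KO passed only with 1 library left out or, for Aplnr, without a minimum. A group left with 1 library is assumed to vary like the others.

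Same-numbered libraries are not stated to share an animal or day, and their deviations correlated between -0.211 and 0.451 over pairs of groups. With the replicate number as a block, 2 members were called for UTP in WT, as without it, and the single change of call was Vegfa in P2Y2 KO against WT without UTP (adjusted p = 0.0446). Over all genes the block gave 274 calls for UTP in WT, against 214, and a block within each genotype 679 in WT and 48 in P2Y2 KO, against 214 and 6. That within-genotype block ended both Vegfb calls (adjusted p = 0.117 without UTP and 0.0537 with UTP) and added Vegfa without UTP (0.00784) and Nrp1 with UTP (0.0493) for P2Y2 KO against WT.

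Over all genes, calls for UTP in WT numbered 552 in DESeq2, 1083 of 31215 genes without a minimum and 108 with the share of male cells; in P2Y2 KO 93, 319 and 28; and for P2Y2 KO against WT without UTP 2129 in DESeq2 and 1435 with that share. The difference of effects had 6 calls in DESeq2, 28 without a minimum and 275 without untreated WT pool 2. With 2 pools a group and fewer than 70 counts, Pgf and Angpt1 had intervals too wide to show a change of the size seen for Apln in P2Y2 KO.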
